A study of Mus musculus with 16 samples.

Results

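The genes described here are 10 regulators and effectors of basal identity and of the epithelial-mesenchymal transition (EMT) in mouse mammary epithelium: Trp63, Snai1, Snai2, Twist1, Twist2, Zeb1, Zeb2, Cdh1, Cdh3 and Vim. They were chosen by name, each was read from its brightest probe set on average over 16 arrays, and all 10 were among the 17097 genes measured. The cells came from 4 female mice aged 10 weeks and 2 days, of line DMI and strain C57BL/6J 129. Both knockout mice were Cpeb2 -/- and both wild-type mice were Cpeb2 +/+, and all 4 carried Sox2-Cre +/+, a Cre recombinase driven from a Sox2 promoter active in the early embryo. No mice without the Cre were analysed here. Cpeb2 encodes a cytoplasmic polyadenylation element binding protein, which binds messenger RNAs and regulates their translation. Each mouse gave 4 freshly sorted populations, so there were 8 groups, each with 2 arrays from 2 mice. Myoepithelial cells, the contractile basal layer, were sorted as Epcam low and CD49f high. Luminal cells were Epcam high and CD49f low. Among them the Sca1+ cells were called non-clonogenic where they lacked CD49b and ductal progenitors where they carried it, and cells with CD49b but without Sca1 were the alveolar progenitors. Mouse 1 of each genotype came from the same parents, and mouse 2 of each genotype from another pair.

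The mammary epithelium has a luminal layer facing the duct and a basal layer resting on the basement membrane, and p63, encoded by Trp63, is the transcription factor that maintains the basal layer. The Snail, Twist and Zeb families are transcription factors that can repress E-cadherin (Cdh1) and epithelial junction genes by binding E-box sequences, and their activity in epithelial cells is a hallmark of EMT. Cells of the mammary basal layer normally express P-cadherin (Cdh3), Slug (Snai2) and the intermediate filament vimentin (Vim) while remaining epithelial. Vimentin is also abundant in fibroblasts, endothelium and leukocytes, so a trace of those cells can add to its signal in a sorted population.

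The promoters of Snai1 and Vim are shown because these are the members whose levels differed most among the luminal arrays. They are RefSeq windows on build GRCm38.p6, from 250 bases before to 50 bases after the annotated start, and 5 of the 10 members had such a window. Capitals mark 4 short motifs searched on both strands, none of which overlapped in these windows: the E-box CACCTG bound by Snail and Zeb proteins, the GC box GGGCGG, the TATA box TATAAA, and the CCAAT box, which reads ATTGG where it lies on the opposite strand.
Snai1 chr2:167537945-167538244 (+ strand): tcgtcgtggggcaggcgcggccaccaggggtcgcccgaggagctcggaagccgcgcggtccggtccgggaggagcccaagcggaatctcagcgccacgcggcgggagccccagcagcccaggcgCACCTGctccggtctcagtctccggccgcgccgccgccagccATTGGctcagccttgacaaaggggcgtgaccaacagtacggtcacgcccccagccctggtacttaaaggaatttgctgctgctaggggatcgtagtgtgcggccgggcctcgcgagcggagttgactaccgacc
Vim chr2:13574061-13574360 (+ strand): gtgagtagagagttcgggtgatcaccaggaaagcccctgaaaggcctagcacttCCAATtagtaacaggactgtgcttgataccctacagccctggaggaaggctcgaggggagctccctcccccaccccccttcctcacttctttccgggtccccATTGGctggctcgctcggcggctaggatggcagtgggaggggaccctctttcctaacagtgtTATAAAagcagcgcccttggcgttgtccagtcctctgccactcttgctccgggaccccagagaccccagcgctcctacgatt
The Snai1 window held 1 CACCTG, starting at position -126 relative to the start site, and 1 CCAAT on the opposite strand at -84. The Vim window held TATAAA at -32, CCAAT at -196 and CCAAT on the opposite strand at -94, and no CACCTG. Of all 32851 windows of this length, 20.2% held CACCTG, 13.6% TATAAA, 37.4% CCAAT and 35.7% GGGCGG. These matches describe the letters of the windows, and none was tested for binding.

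Levels below are log2 array values, so a difference of 1 is a doubling, and they are compared within a gene and not between genes. The lower quartile of all probe sets was 5.13, and values near or under it are close to the bottom of the scale. Values ran from 3.40 to 13.60, array medians lay between 6.35 and 6.40, and replicate arrays correlated at r = 0.975 to 0.991 over probe sets. The sort was reflected in the markers: the mean level of 5 myoepithelial markers was 11.65 to 11.997 in myoepithelial arrays and 5.95 to 6.93 in luminal arrays. The 3 luminal keratins were all lower in myoepithelial than in luminal cells, with differences of -3.37 for Krt19 and -1.87 for Krt18. The Cpeb2 probe set gave 7.88 to 8.66 in the wild-type and 6.39 to 7.67 in the knockout arrays of both Sca1+ populations. It gave 5.41 to 6.03 in the wild-type and 4.71 to 5.45 in the knockout arrays of alveolar progenitors and myoepithelial cells. Its mean difference over the 4 populations was -0.92 ± 0.21 (SE), with a limma adjusted p of 0.0201, and the position of that probe set relative to the deletion was not examined. Differences are given with the standard error (SE) of a limma fit over all 16 arrays, and calls were made at 0.05 after Benjamini-Hochberg adjustment over the 17097 genes. The p-values rest on the spread between the 2 arrays within a group, pooled over the 8 groups. The fitted correlation within a mouse was 0.0383, so the 4 arrays of a mouse counted as nearly independent. Each genotype was represented by only 2 mice. The arrays measure sorted cells in bulk, where fewer cells of a type and less RNA per cell cannot be told apart.

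Between myoepithelial and luminal cells, 4 members separated by more than 10-fold and all were higher in the myoepithelial cells: Trp63, Cdh3, Vim and Snai2. The share of all genes that separated by more than 10-fold was not counted. Cdh1 was lower in myoepithelial cells but lay far above the lower quartile in both layers, and Twist2 differed by a small amount. In all, 6 of the 10 members were called in the comparison of myoepithelial cells with the mean of the 3 luminal populations, 5 higher and 1 lower. In the same comparison 48.0% of all genes were called, 23.5% higher and 24.4% lower, so the share of members called was little above the background. The median difference of all genes was 0.02.

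Trp63, the p63 gene, read 12.26 and 11.85 in the wild-type and 11.80 and 12.16 in the knockout myoepithelial arrays. The 12 luminal arrays read 5.73 to 6.67, so the layers did not overlap. The difference was 5.86 ± 0.10, a 58.1-fold higher level (limma adjusted p = 7.05e-13). The other 3 Trp63 probe sets gave the same direction, with differences of 4.68 ± 0.10, 5.74 ± 0.12 and 1.49 ± 0.07. Within the luminal populations the main probe set was highest in alveolar progenitors, at 6.67, 6.57, 6.32 and 6.28 against 5.73 to 6.19 in non-clonogenic luminal cells and 5.85 to 6.27 in ductal progenitors. The 4 alveolar arrays lay above all 8 Sca1+ arrays, but the gap was mostly in the wild type. Wild-type alveolar arrays read 6.67 and 6.57, against 5.73 to 5.91 in wild-type Sca1+ arrays. Knockout alveolar arrays read 6.32 and 6.28, against 6.05 to 6.27 in knockout Sca1+ arrays. The F test for a knockout effect that differs between populations, given below, did not call Trp63. The next differences are averages over both genotypes. The non-clonogenic luminal cells were lower than alveolar progenitors by -0.49 ± 0.12 (limma adjusted p = 0.00812) and the ductal progenitors by -0.43 ± 0.12 (limma adjusted p = 0.0225). The other 3 Trp63 probe sets did not show this luminal difference: they gave -0.01, -0.15 and 0.02 for the first comparison, and 0.01, -0.18 and -0.00 for the other. The mean myoepithelial marker level was also highest in alveolar progenitors among luminal cells, at 6.63 to 6.93 against 5.95 to 6.37 in the Sca1+ arrays, and its part in the Trp63 difference was not tested.

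**Figure D1:**
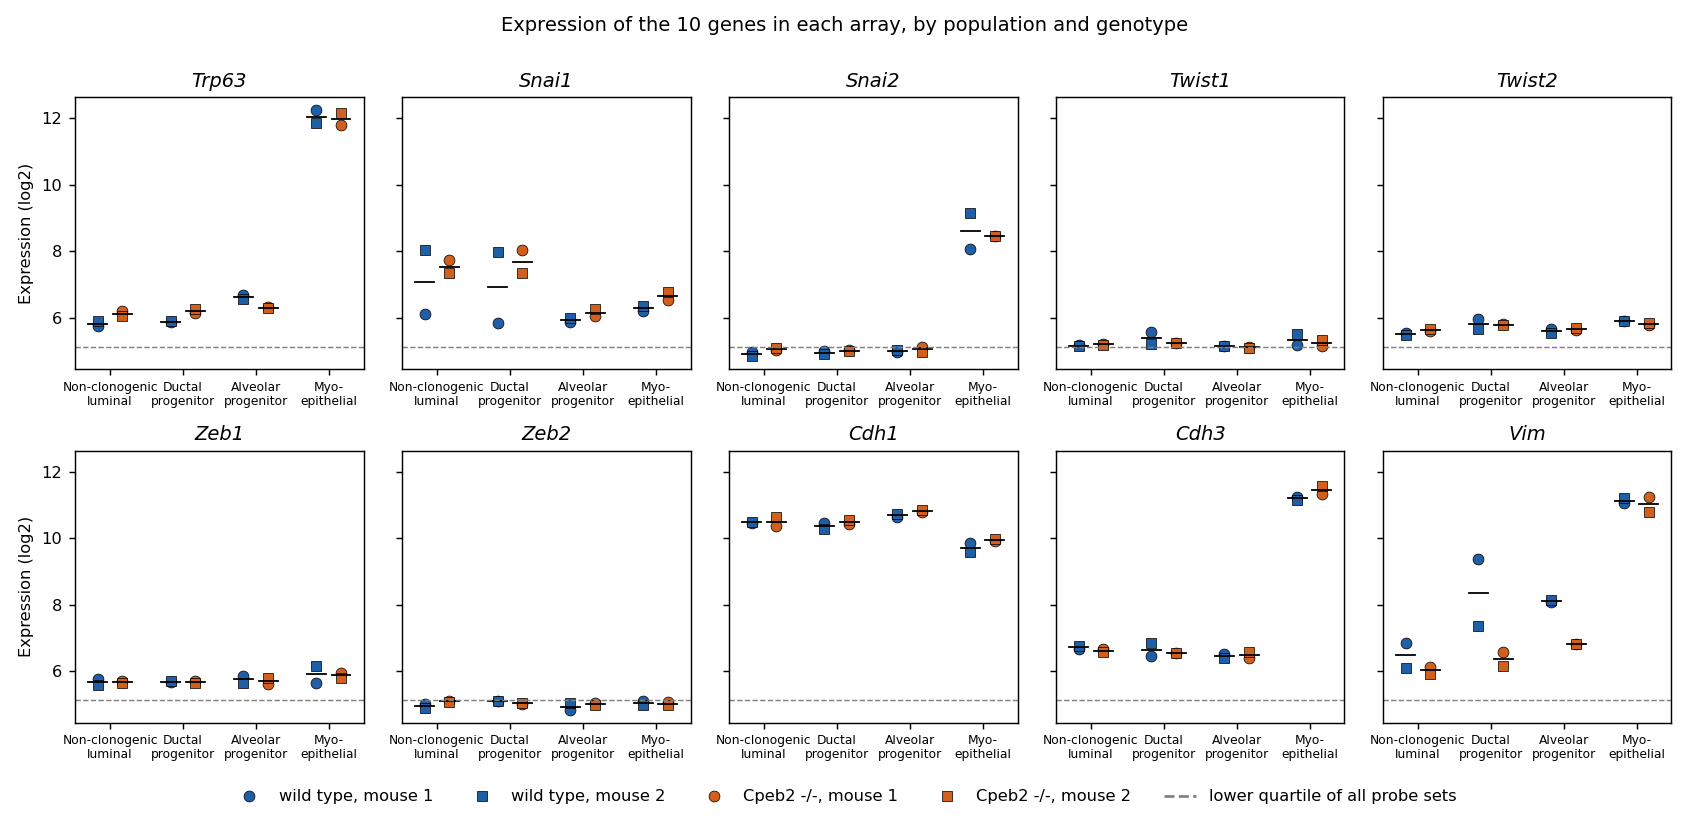
Log2 array level (vertical axes) of each of the 10 genes in the 4 sorted populations (horizontal axes), 1 point per array, with genotypes by colour, mouse 1 as circles, mouse 2 as squares, group means as short lines and the lower quartile of all probe sets, 5.13, as a dashed line. Trp63, Snai2, Cdh3 and Vim sit higher in all 4 myoepithelial arrays than in any luminal array, and the Snai1 points of wild-type mouse 1 lie apart from the other Sca1+ arrays.

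Snai2, which encodes Slug, read 8.08 and 9.16 in the wild-type and 8.45 and 8.45 in the knockout myoepithelial arrays. All 12 luminal arrays read 4.86 to 5.12, under the lower quartile of the array values. The difference was 3.54 ± 0.13, or 11.6-fold (limma adjusted p = 8.09e-10), and it is a lower bound because the luminal side lay at the bottom of the scale. Against each luminal population singly the difference was 3.55, 3.56 and 3.52, so Snai2 did not rank the luminal populations. The wild-type myoepithelial arrays differed from each other by more than either differed from the knockout arrays.

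Snai1, which encodes the founding member of the Snail family, had another distribution from that of Snai2. In non-clonogenic luminal cells it read 6.10 and 8.03 in the wild-type and 7.74 and 7.33 in the knockout mice. In ductal progenitors it read 5.84 and 7.97 in the wild-type and 8.02 and 7.33 in the knockout mice. Alveolar progenitors read 5.87 to 6.25 and myoepithelial cells 6.21 to 6.76. Thus 3 of the 4 mice had a higher Snai1 level in both Sca1+ luminal populations than in any alveolar or myoepithelial array, while wild-type mouse 1 was low in both. Against alveolar progenitors, Snai1 was higher in non-clonogenic luminal cells by 1.27 ± 0.42, or 2.40-fold (limma adjusted p = 0.0424), and in ductal progenitors by 1.26 ± 0.42 (limma adjusted p = 0.0534), which missed the threshold. Without wild-type mouse 1 the first difference was 1.72, and without wild-type mouse 2 it was 0.81 and not called; it was called in 7 of 20 fits that left out a mouse or an array. Snai1 differed from the luminal mean by -0.42 ± 0.35 in myoepithelial cells (limma adjusted p = 0.347), with a 95% interval of -1.17 to 0.34.

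The genes whose levels ran most like Snai1 over the 16 arrays were Greb1, at Pearson r = 0.968, Tmem45b at 0.953 and Krt4 at 0.946. Greb1, known as an estrogen-induced gene in breast cells, read 5.14 and 7.44 in the wild-type and 7.99 and 6.60 in the knockout arrays of non-clonogenic luminal cells. In ductal progenitors it read 4.86 and 7.73 in the wild-type and 8.51 and 7.39 in the knockout arrays, and it lay between 4.77 and 5.57 in the other 8 arrays. Wild-type mouse 1 was therefore low for both genes in the same 2 populations. These correlations describe arrays that share mice and populations.

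Twist1 and Twist2, basic helix-loop-helix factors of mesenchymal cells, gave low signals with small differences. Twist1 read 5.10 to 5.57 over the 16 arrays and was not called between the layers, at 0.08 ± 0.07 (limma adjusted p = 0.393). Its 2 highest arrays were the ductal progenitors of wild-type mouse 1, at 5.57, and the myoepithelial cells of wild-type mouse 2, at 5.51. Twist2 read 5.77 to 5.89 in myoepithelial arrays and 5.47 to 5.96 in luminal arrays, so the layers overlapped. Its difference was 0.18 ± 0.06, or 1.13-fold (limma adjusted p = 0.0163), and it missed the threshold after quantile normalization, at 0.13 (limma adjusted p = 0.0678), and in 4 of 20 fits that left out a mouse or an array. The highest Twist2 level of all was 5.96 in the ductal progenitors of wild-type mouse 1. Its most similar genes were Serpinf1 (r = 0.899), Ccdc80 (r = 0.885) and Cd34 (r = 0.874).

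Zeb1 and Zeb2, zinc finger and homeobox repressors of E-cadherin, were also near the bottom of the scale. Zeb1 read 5.66 and 6.14 in the wild-type and 5.95 and 5.81 in the knockout myoepithelial arrays, against 5.58 to 5.86 in luminal arrays. The difference of 0.20 ± 0.08 was not called (limma adjusted p = 0.0682), with a 95% interval of 0.02 to 0.38. A further Zeb1 probe set read 5.64 to 6.17 in myoepithelial arrays, 6.29 in the ductal progenitors of wild-type mouse 1 and 5.27 to 5.45 in the other luminal arrays. Zeb2 read 4.82 to 5.11 and lay under the lower quartile in all 16 arrays, with a difference between layers of 0.01 ± 0.05 (limma adjusted p = 0.873). The other 3 Zeb2 probe sets read 3.92 to 4.82, so no Zeb2 probe set rose above the lower quartile in any array.

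The cadherins, calcium-dependent adhesion proteins, divided the layers in opposite directions but by very unequal amounts. P-cadherin, Cdh3, read 11.26 and 11.14 in the wild-type and 11.32 and 11.57 in the knockout myoepithelial arrays, against 6.39 to 6.84 in all luminal arrays. The difference was 4.74 ± 0.09, or 26.8-fold (limma adjusted p = 1.58e-12), and the other Cdh3 probe set gave 1.48 ± 0.09. E-cadherin, Cdh1, read 9.85 and 9.58 in the wild-type and 9.91 and 9.97 in the knockout myoepithelial arrays. The luminal arrays read 10.29 to 10.84, all above the myoepithelial ones, and the difference was -0.73 ± 0.08, or 1.66-fold lower in myoepithelial cells (limma adjusted p = 1.33e-05). Among luminal cells, Cdh1 was highest in alveolar progenitors, at 10.66, 10.73, 10.79 and 10.84. Ductal progenitors, at 10.47, 10.29, 10.43 and 10.54, were lower by -0.32 ± 0.10 (limma adjusted p = 0.0387), a call lost in 12 of 20 fits that left out a mouse or an array. For non-clonogenic luminal cells the difference from alveolar progenitors was -0.26 ± 0.10 (limma adjusted p = 0.0765).

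**Figure D2:**
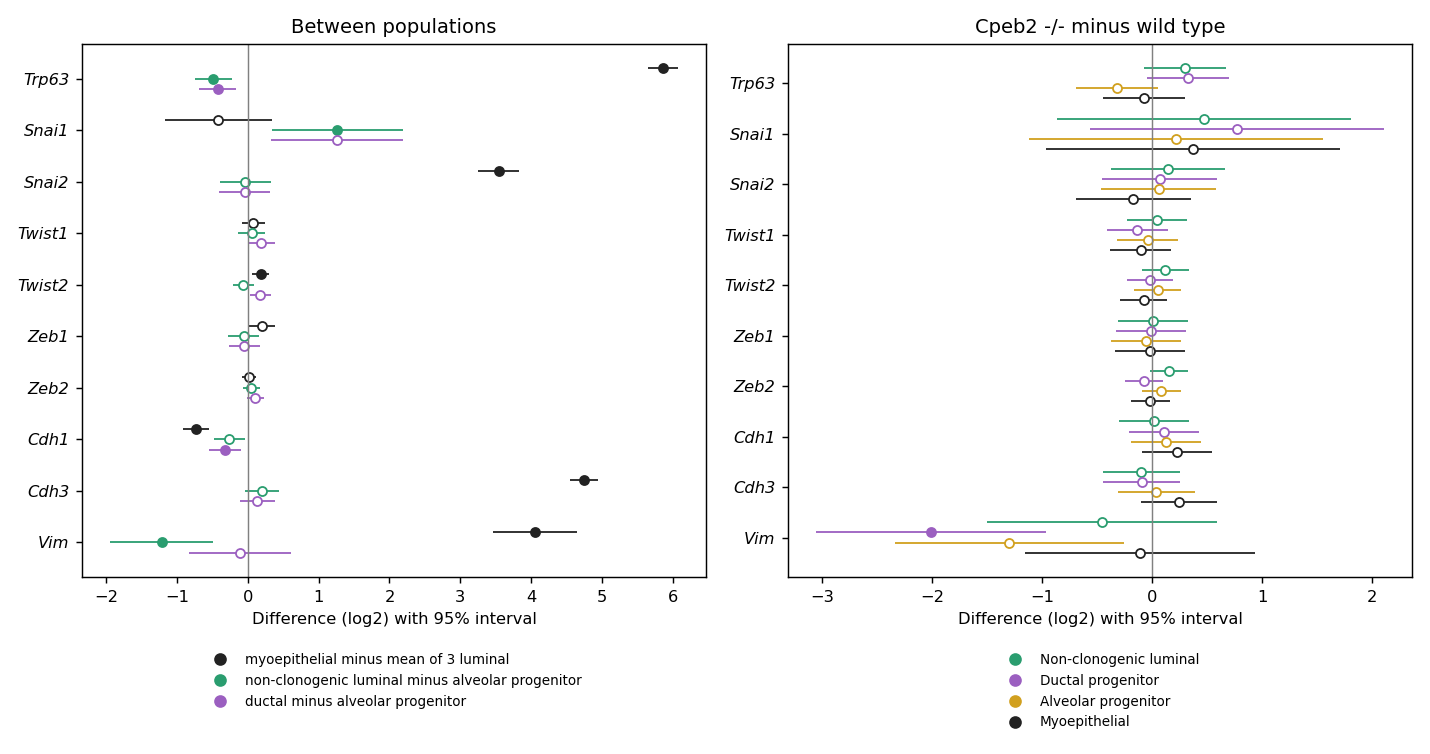
Log2 differences of the 10 genes with their 95% intervals, between populations on the left (myoepithelial minus luminal, and both Sca1+ populations minus alveolar progenitors) and knockout minus wild type in the 4 populations on the right; filled points passed the adjusted threshold. Trp63, Cdh3, Vim and Snai2 lie between 3.54 and 5.86 to the right of 0 for myoepithelial minus luminal cells and Cdh1 lies at -0.73, and on the right the interval of Vim in ductal progenitors, -3.05 to -0.96, lies below 0.

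Vim read 11.06 and 11.21 in the wild-type and 11.26 and 10.79 in the knockout myoepithelial arrays. It was also the member that varied most among luminal arrays. Non-clonogenic luminal cells read 6.86 and 6.09 in the wild-type and 6.14 and 5.90 in the knockout mice. Ductal progenitors read 9.38 and 7.35 in the wild-type and 6.56 and 6.14 in the knockout mice, and alveolar progenitors 8.08 and 8.15 in the wild-type and 6.82 and 6.81 in the knockout mice. All myoepithelial arrays lay above all luminal arrays, and the difference was 4.06 ± 0.27, or 16.6-fold (limma adjusted p = 1.29e-07). Compared with alveolar progenitors, Vim in non-clonogenic luminal cells was lower by -1.22 ± 0.33, or 2.33-fold (limma adjusted p = 0.0153), a call lost in 4 of 20 fits that left out a mouse or an array. The other Vim probe sets gave -1.64 ± 0.33 (limma adjusted p = 0.0026 over all probe sets) and -0.55 ± 0.25, which was not called (limma adjusted p = 0.133). The level in ductal progenitors did not pass the test against either, at 1.11 ± 0.33 above non-clonogenic luminal cells (limma adjusted p = 0.318) and 0.11 ± 0.33 below alveolar progenitors (limma adjusted p = 0.875).

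Taken singly, the luminal populations gave similar contrasts with the myoepithelial cells. Of the 10 members, 6 were called against non-clonogenic luminal cells (45.0% of all genes), 5 against ductal progenitors (41.7%) and 6 against alveolar progenitors (36.5%). Trp63, Snai2, Cdh3, Vim and Cdh1 were called in all 3, with Trp63 differences of 6.04, 5.98 and 5.56, Cdh3 differences of 4.65, 4.72 and 4.85, and Vim differences of 4.83, 3.72 and 3.61. Twist2 was the sixth against non-clonogenic luminal cells and alveolar progenitors. Between luminal populations, 3 members were called when non-clonogenic cells were set against alveolar progenitors (28.5% of all genes): Trp63, Snai1 and Vim. For ductal against alveolar progenitors 2 were called (22.0%), Trp63 and Cdh1. In limma 0 were called between both Sca1+ populations, where 0.795% of all genes were called and Twist2 and Vim had unadjusted p under 0.05.

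Basal genes linked to p63 differed in the same direction as Trp63 between the layers. The list holds genes of the basal layer and the sort parted basal from luminal cells, so this direction was largely set beforehand. The part of p63 in it was not tested. Of 20 genes listed as p63-linked basal genes, 16 were measured, with a median difference of 1.74. Of these, 15 were called higher and 0 lower in myoepithelial cells, where 23.5% of all genes were called higher. They included the basal keratins Krt14 (5.84 ± 0.10) and Krt5 (5.50 ± 0.09), the hemidesmosomal collagen Col17a1 (5.47 ± 0.16) and the laminin chain Lama3 (4.61 ± 0.19). Itga6, also among the 15, encodes CD49f, an antigen of the sort, so the sort itself could set its direction. Bnc1, a basal transcription factor, was the exception at 1.62 ± 0.70 (limma adjusted p = 0.0743). Krt5 was also the gene most like Trp63 over the 16 arrays (r = 0.997), followed by the smooth muscle myosin Myh11 (r = 0.997) and the growth factor Hgf (r = 0.996). Snai2 ran most like Lmo1, Irx4 and Actg2 (r = 0.996 to 0.998), and Cdh3 most like Wnt10a, Slc2a4 and Ephb1 (each r = 0.997). These values are set largely by the gap between 4 myoepithelial and 12 luminal arrays.

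Genes of epithelial junctions and epithelial state mostly had the direction of Cdh1. Of 20 such genes, all measured, 12 were lower and 2 higher in myoepithelial cells, with a median of -1.23. Of all genes 24.4% were called lower and 23.5% higher. The 12 included Epcam, an antigen of the sort, whose direction the sort itself could set. The tight junction genes Cldn7 (-4.91 ± 0.11), Cldn3 (-4.76 ± 0.17), Ocln (-3.62 ± 0.27) and Cldn4 (-3.32 ± 0.19) had the lowest values, all more negative than the Cdh1 difference of -0.73. The desmosomal linker Dsp (0.69 ± 0.07) and the alpha-catenin Ctnna1 (0.20 ± 0.07) were higher. The splicing regulator Esrp1 (-0.20, limma adjusted p = 0.117), the transcription factor Grhl2 (-0.19, limma adjusted p = 0.143) and the beta-catenin gene Ctnnb1 (-0.12, limma adjusted p = 0.167) were not called.

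EMT effectors and signals other than the members were divided. Of 21 listed genes 19 were measured, and 9 were higher and 2 lower in myoepithelial cells, with a median of 0.23. The matrix protein Sparc (4.22 ± 0.16), the matrix protease Mmp2 (3.69 ± 0.28), the homeobox factor Prrx1 (2.65 ± 0.18) and the TGF-beta receptor Tgfbr1 (2.09 ± 0.29) were the highest. The ligand Tgfb3 (-0.88 ± 0.32) and the signal transducer Smad2 (-0.61 ± 0.11) were lower. Of 9 other cadherins, 6 were higher and 0 lower, with a median of 0.27. The endothelial cadherin Cdh5 (1.93 ± 0.14), Cdh13 (1.61 ± 0.17), the mesenchymal Cdh11 (0.72 ± 0.06) and the neural Cdh2 (0.60 ± 0.08) led them. Cdh11 lay under the lower quartile in every array, at 3.96 to 4.37 in luminal and 4.72 to 4.99 in myoepithelial arrays. Cdh2 lay under it in all luminal arrays, at 4.73 to 4.96, and read only 5.07 to 5.69 in myoepithelial arrays. Cdh11 and Cdh2 were also counted in the EMT list, and Cdh5 among the endothelial markers below. Some markers of other cells were also called higher in myoepithelial arrays, where 23.5% of all genes were. These were 6 of 6 endothelial markers, with a median of 0.74, and 3 of 4 pericyte markers, with Notch3 lower at -2.73 ± 0.15. A further 3 of 7 leukocyte and 1 of 2 adipocyte markers were higher. For fibroblasts it was 2 of 7 markers, near the share of all genes. Against ductal progenitors alone 0 of the 7 fibroblast markers were called, with a median of -0.26. The part of these other cell types in the Cdh5, Sparc and Vim differences was not tested.

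**Figure D3:**
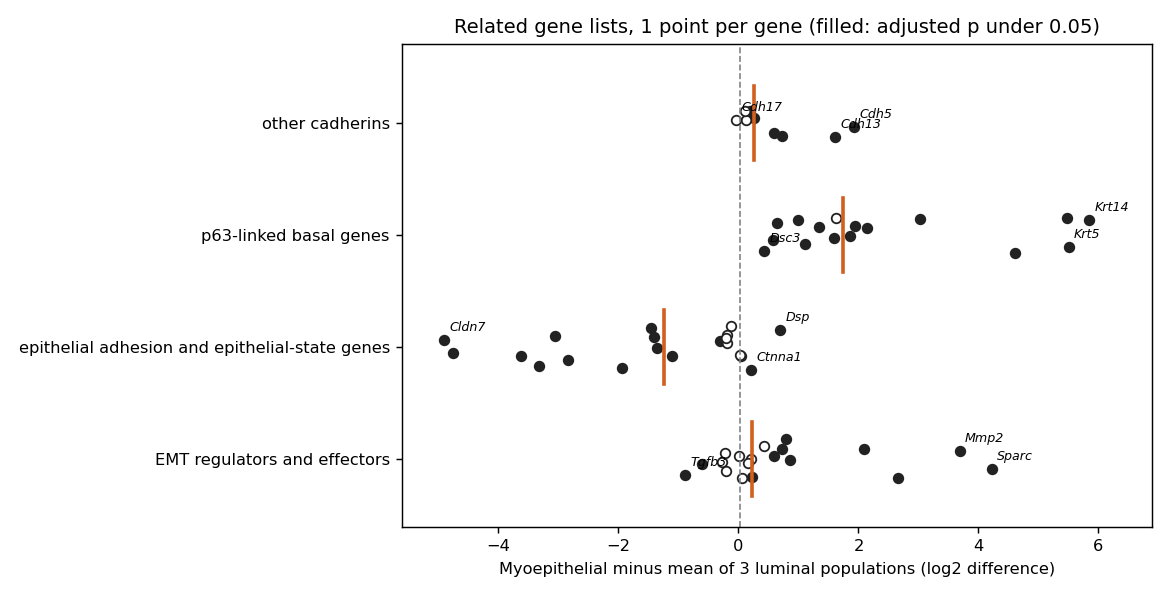
Log2 differences, myoepithelial minus luminal cells, of each measured gene (points) in 4 lists related to the 10 genes, with the list median as a line; filled points passed the adjusted threshold. The p63-linked basal genes lie to the right of 0, with a median of 1.74, and most epithelial adhesion genes lie to the left, with a median of -1.23.

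With all arrays and the main probe sets, 9 of the 10 members had no called difference between knockout and wild-type mice. The exception was Vim. Vim was lower in knockout ductal progenitors, by 4.02-fold, and lower in the mean of the 4 populations, by 1.96-fold. In limma 0 members were called in non-clonogenic luminal cells, alveolar progenitors or myoepithelial cells, where 2.06%, 0.620% and 1.01% of all genes were called. At an unadjusted p under 0.05 it was 0, 1 and 0 members, the 1 being Vim in alveolar progenitors. In ductal progenitors 1 member was called against 7.44% of all genes, 3.09% higher and 4.35% lower. In the mean of the 4 populations it was 1 member against 10.2%, 3.18% higher and 7.04% lower. A member count of 1 of 10 is near those backgrounds.

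In ductal progenitors the wild-type Vim levels of 9.38 and 7.35 both lay above the knockout levels of 6.56 and 6.14, and the difference was -2.01 ± 0.48 (limma adjusted p = 0.0326). In alveolar progenitors the groups also did not overlap, and replicates lay close together, but the difference of -1.30 ± 0.48 was not called in the fit over all arrays (limma adjusted p = 0.360), with a 95% interval of -2.34 to -0.25. A fit of the 4 alveolar arrays alone called it, at an adjusted p of 0.0308. In non-clonogenic luminal cells the difference was -0.46 ± 0.48 and in myoepithelial cells -0.11 ± 0.48, neither called (limma adjusted p = 0.665 and 0.950). The mean over the 4 populations was -0.97 ± 0.25 (limma adjusted p = 0.0323), and it was called in 10 of 20 fits that left out a mouse or an array. For this mean the other Vim probe sets gave -1.05 ± 0.25 (limma adjusted p = 0.0251) and -0.36 ± 0.19, which was not called (limma adjusted p = 0.267). Whether the knockout effect differed between populations was tested by an F test, which called 0 of the 10 members in limma, 0 also at an unadjusted p under 0.05, and 0.667% of all genes. It gave Vim an adjusted p of 0.312.

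The size and the call of the Vim difference in ductal progenitors depended on single arrays, and 6 of 20 fits that left out a mouse or an array did not call it. Without the ductal progenitor array of wild-type mouse 1 the difference was -1.003 and not called (limma adjusted p = 0.229), and without all arrays of wild-type mouse 2 it was -3.02. Without either knockout array of ductal progenitors it was -2.21 and -1.81 and not called (limma adjusted p = 0.141 and 0.127), as was the case without either knockout mouse (limma adjusted p = 0.291 and 0.265). The main Vim probe set belongs to a class whose probes can match more than 1 transcript. A further probe set read 9.11 and 7.11 in the wild-type and 6.09 and 5.64 in the knockout ductal progenitors, a difference of -2.24 ± 0.47 (limma adjusted p = 0.0272 over all probe sets). The remaining one read 8.53 and 7.09 against 7.02 and 6.91, a difference of -0.84 ± 0.36 (limma adjusted p = 0.166). All 3 probe sets had the 2 wild-type arrays above the 2 knockout arrays in both ductal and alveolar progenitors. They were read on the same arrays, so they are not independent of each other. The share of all genes that separated the genotypes in this way was not counted.

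The mean level of the fibroblast markers ran in the same order as Vim in the ductal progenitors. The mean level of 7 fibroblast markers was 8.24 and 6.75 in the wild-type and 6.55 and 6.28 in the knockout arrays, against 5.52 to 6.92 in the other 12 arrays. In knockout ductal progenitors 1 of the 7 was called lower and 0 higher, with a median difference of -1.47. Of all genes 4.35% were called lower there. The called marker was the proteoglycan gene Dcn at -1.84 ± 0.43 (limma adjusted p = 0.0315). Col1a2 ran the other way, at 4.58 and 4.66 in the wild-type and 4.67 and 4.73 in the knockout arrays. Without the ductal array of wild-type mouse 1 the differences were -1.49 for Dcn, -0.74 for Col3a1, -0.17 for Col1a1 and -0.12 for Dpt. They were then -0.01 for Pdgfra, 0.04 for Col1a2 and 0.07 for Lum. Of the 7, 3 lay under the lower quartile on average. Genes running most like Vim over all arrays were the matricellular protein gene Postn (r = 0.978), the basement membrane collagen Col4a1 (r = 0.966) and the podoplanin gene Pdpn (r = 0.963). A measure linked to RNA integrity moved too: the 3' less middle signal of Gapdh was 0.60 and 0.39 in the wild-type and 0.15 and 0.12 in the knockout ductal progenitors. That of Actb was 0.12 and 0.27 in the wild-type and 0.05 and 0.06 in the knockout arrays. The part of fibroblast RNA and of RNA integrity in the Vim difference was not tested.

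In alveolar progenitors the fibroblast marker level did not follow Vim. It was 5.91 and 5.52 in the wild-type and 5.81 and 5.56 in the knockout arrays, so the groups overlapped, while Vim did not overlap there. The Gapdh measure was 0.14 and 0.18 in the wild-type and 0.49 and 0.23 in the knockout arrays, in the opposite order to that in ductal progenitors. The Actb measure overlapped between genotypes there, at -0.04 and 0.03 in the wild-type and 0.04 and -0.02 in the knockout arrays. The mean level of 5 myoepithelial markers, like Vim, was higher in the wild-type than in the knockout arrays of both populations. It was 6.804 and 6.93 against 6.63 and 6.67 in alveolar progenitors, and 6.37 and 6.37 against 6.13 and 6.08 in ductal progenitors. In alveolar progenitors Oxtr read 7.14 and 7.58 against 6.82 and 6.46, while Cnn1, Mylk and Myh11 overlapped between genotypes. Oxtr was also called lower in the knockout in the mean of the 4 populations. Of the 5 markers 0 were called between genotypes in alveolar or ductal progenitors in limma. At an unadjusted p under 0.05 it was 2 in ductal and 1 in alveolar progenitors. The part of these markers in the Vim differences was not tested.

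**Figure D4:**
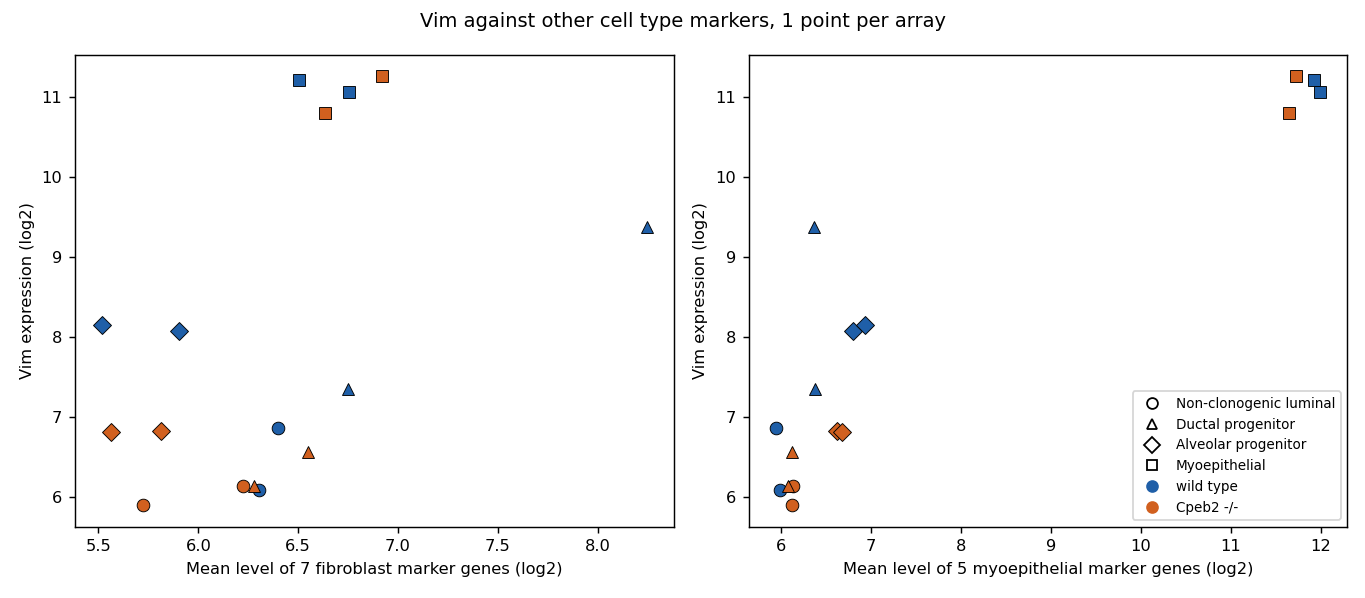
Log2 level of Vim (vertical axis) against the mean log2 level of 7 fibroblast markers (left) and of 5 myoepithelial markers (right), 1 point per array, with populations by symbol and genotypes by colour. On the left the ductal progenitor array of wild-type mouse 1 lies apart at 8.24, while the alveolar progenitor arrays separate by genotype in Vim, 8.08 and 8.15 against 6.82 and 6.81, at marker levels between 5.52 and 5.91.

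The other members gave knockout differences that did not pass the test in any population. Trp63 was 0.30 in non-clonogenic luminal cells, 0.33 in ductal progenitors, -0.32 in alveolar progenitors and -0.08 in myoepithelial cells, with limma adjusted p of 0.399, 0.233, 0.631 and 0.896. In each luminal population the wild-type and knockout Trp63 values did not overlap, but the signs differed, and the F test for a difference between populations gave an adjusted p of 0.300. The share of all genes without such overlap was not counted. Snai1 had a mean difference of 0.46 ± 0.32 (limma adjusted p = 0.388), with a 95% interval of -0.25 to 1.16. In both Sca1+ populations wild-type mouse 1 lay below the knockout mice, and wild-type mouse 2 lay between or above them. Snai2 had a mean difference of 0.02 ± 0.13, with a 95% interval of -0.25 to 0.30. Cdh1 differed by 0.12 ± 0.08 (limma adjusted p = 0.353), with a 95% interval of -0.05 to 0.29, and Cdh3 by 0.02 ± 0.08. A further Cdh3 probe set gave 7.06 and 6.45 in wild-type and 7.62 and 7.51 in knockout myoepithelial cells, a difference of 0.81 ± 0.17 that missed the threshold (limma adjusted p = 0.0520 over all probe sets). Its mean over the 4 populations was 0.32 ± 0.09 and was called (limma adjusted p = 0.0467 over all probe sets), unlike that of the main probe set.

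The counts of the related lists in ductal progenitors stand beside the 3.09% of all genes called higher and 4.35% called lower in the knockout there. In knockout ductal progenitors, 0 of the 19 other EMT genes were called in limma and 6 had an unadjusted p under 0.05, with a median of -0.36 against 0.08 for all genes. The epithelial adhesion genes St14 (0.91 ± 0.20, limma adjusted p = 0.0260) and Crb3 (0.86 ± 0.22, limma adjusted p = 0.0398) were higher, 2 of 20 with a median of 0.16. Of the 16 p63-linked genes, Itgb4 (0.71) and Fat2 (0.35) were higher and the desmosomal plaque gene Pkp1 (-1.26 ± 0.21, limma adjusted p = 0.00902) lower, with a list median of 0.32. Of the 9 other cadherins, Cdh13, a cadherin anchored to the membrane by a lipid, was higher by 1.81 ± 0.30 (limma adjusted p = 0.00877). Without the ductal array of wild-type mouse 1, an alternative chosen after seeing the data, each list had 0 calls, while the differences kept their direction. They were then 1.75 for Cdh13, -1.06 for Pkp1, 0.70 for St14, 0.53 for Itgb4, 0.50 for Crb3 and 0.45 for Fat2. In knockout non-clonogenic luminal cells, where 2.06% of all genes were called, 3 list genes were called. Cdh13 was higher by 1.79 ± 0.30, and Pkp1 (-1.65 ± 0.21) and Tgfb1 (-1.21 ± 0.22) were lower. In knockout myoepithelial cells, where 1.01% of all genes were called, 2 genes of the related lists were called, both p63-linked and lower. They were the basal keratin Krt15 (-1.37 ± 0.25) and Fat2 (-0.51 ± 0.10), and the sign of Fat2 in ductal progenitors was the opposite. Among the cell type markers, the endothelial Kdr was called higher there and the myoepithelial Cnn1 lower. All 6 endothelial markers had an unadjusted p under 0.05 in limma, with a median of 0.62 against -0.03 for all genes. The part of endothelial cells in these myoepithelial differences was not tested. In the mean of the 4 populations 3.18% of all genes were called higher and 7.04% lower. There Cdh13 was higher by 0.95 ± 0.16 (limma adjusted p = 0.00376) and Epcam, the adhesion molecule used in the sort, by 0.24 ± 0.05 (limma adjusted p = 0.00994). In the same mean Crb3 (0.41 ± 0.12) and Lama3 (0.61 ± 0.17) were higher and Pkp1 was lower (-0.55 ± 0.11). Without the ductal array of wild-type mouse 1, Crb3 (0.32) and Lama3 (0.65) were no longer called.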

How the data were processed

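Sorted mammary cells of 4 mice gave 16 Affymetrix arrays, in 8 groups of 2 taken from the labels of genotype and population. Per the labels' protocols, Trizol was used for extraction, 15 ng of RNA went into whole transcriptome amplification, and a biotin label was put on 8 µg of the cDNA. The values are log2 levels per probe set as deposited by the authors. The submitters' processing notes name RMA and limma without role or version, and background correction, batch correction and filters are not stated there.

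The array annotation gave 1 symbol to 28898 of 45141 probe sets, several to 551 and none to 15588, and 104 were controls. Symbols of 28689 were checked by Entrez identifier, and 0 changed. Each of 17097 genes was read from its probe set of highest mean. Fits used limma 3.58.1 with statmod 1.5.0 in R 4.3.3, with 8 group means, the mouse as random block (duplicateCorrelation, consensus correlation 0.0383), and eBayes with a trend. There were 8 residual and 3.90 prior degrees of freedom. The fitting script was tested on simulated data.

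The members and the gene lists were chosen with earlier results of these data known. The text names all 10 members, up to 4 called genes of each related list in each direction by size, the genes named as not called, and the 3 genes most like a member by Pearson r. The related and marker lists left out 8 of their genes, for which no probe set was named here. The labels pair mice across genotypes by shared parents. The correlations of their deviations from the group means were 0.07 in non-clonogenic luminal cells, -0.01 in ductal progenitors, 0.06 in alveolar progenitors and -0.04 in myoepithelial cells. The alternatives were no mouse block, the mouse or parent pair as fixed block, array weights, quantile normalization, a filter on low values, the mean of probe sets, each other probe set, fewer arrays in the fit, and leaving out each mouse or array. The number of arrays limits the precision.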

Additional observations from a re-analysis of the deposited data

How the results depend on the processing

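Under 32 settings, 20 of them leaving out a mouse or an array, 3350 values of the members' 120 comparisons were recomputed: 3047 kept direction and side of the threshold, 88 kept the direction but fell short of it and 53 newly passed it. A further 160 changed sign where neither value was called, and 2 changed sign from a called value. Those 2 were Trp63 in other probe sets, at 0.015 for non-clonogenic luminal against alveolar progenitors (-0.49 in the main probe set) and 0.0089 for ductal against alveolar progenitors (-0.43). The mean of the Trp63 probe sets gave -0.16 (limma adjusted p = 0.290) and -0.15 (limma adjusted p = 0.360). The cause was not tested. With wild-type arrays alone, 1 member rather than 3 was called for non-clonogenic luminal against alveolar progenitors and 0 rather than 2 for ductal against alveolar, where the mean of probe sets called 1. The 4 arrays of a population alone called 0 members rather than 1 for the knockout in ductal progenitors and 1 rather than 0 in alveolar progenitors. Those fits held fewer arrays. With the parent pair as a replicate block no member call changed, Vim in ductal progenitors had an adjusted p of 0.0190 in limma, and all genes called in the mean of the 4 populations went from 1748 to 3431.

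Leaving out a mouse or an array called 5 to 9 members in myoepithelial against luminal cells and against non-clonogenic luminal cells, 5 to 7 against ductal and 5 to 8 against alveolar progenitors. It called 0 to 2 between both Sca1+ populations, 0 to 4 for each of them against alveolar progenitors, and for the knockout 0 to 1 in non-clonogenic luminal cells, 0 to 3 in ductal progenitors, 0 to 1 in alveolar progenitors, 0 to 1 in myoepithelial cells, 0 to 2 in their mean and 0 to 1 in the F test. Trp63, Snai2, Cdh3, Vim and Cdh1 were called between myoepithelial and luminal cells in all 20, while Vim in the knockout was called in 14 of 20 for ductal progenitors and 10 of 20 for the mean of the populations. Without wild-type mouse 2, Snai1 was called higher in the knockout, by 1.44 in non-clonogenic luminal cells and by 1.84 in ductal progenitors, and without wild-type mouse 1 its values there were -0.49 and -0.30. Without wild-type mouse 1, Snai2 was called lower in knockout myoepithelial cells (-0.71), and Zeb1 (0.35) and Twist1 (0.20) were called higher in myoepithelial than in luminal cells.

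The number of all genes called moved by over 1.5 times in most of the smaller fits. Wild-type arrays alone gave 4621 rather than 8202 for myoepithelial against luminal cells, 4286 rather than 7690 against non-clonogenic luminal cells, 3757 rather than 7131 against ductal and 2458 rather than 6248 against alveolar progenitors, 48 rather than 136 between both Sca1+ populations, and 2121 rather than 4873 and 1077 rather than 3759 for these against alveolar progenitors. For the knockout, each population's 4 arrays alone gave 86 rather than 353 in non-clonogenic luminal cells, 69 rather than 1272 in ductal progenitors and 0 rather than 173 in myoepithelial cells, but 80 against 106 in alveolar progenitors. Array weights gave 847 rather than 1272 in ductal progenitors, 389 rather than 106 in alveolar progenitors and 50 rather than 173 in myoepithelial cells. Leaving out a mouse or an array gave 0 to 906 in non-clonogenic luminal cells, 17 to 3393 in ductal progenitors, 3 to 315 in alveolar progenitors, 13 to 1391 in myoepithelial cells, 279 to 2603 in their mean and 1 to 1047 (114 with all arrays) in the F test. It gave 42 to 281 between both Sca1+ populations and 2611 to 5447 and 1748 to 4256 for these against alveolar progenitors. For myoepithelial cells it gave 5106 to 8513 against all luminal cells and 4909 to 7965, 4206 to 7488 and 3036 to 6511 against the non-clonogenic, ductal and alveolar populations.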

Other observations

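The TGF-beta ligands, signals that can induce the Snail and Zeb factors, divided the luminal populations. Tgfb1 read 8.21 to 9.72 in the 8 Sca1+ luminal arrays and 6.24 to 6.70 in alveolar progenitors, and was higher in non-clonogenic luminal cells by 2.51 ± 0.15 and in ductal progenitors by 2.27 ± 0.15. Tgfb2 ran the other way, with 5.18 to 6.19 in non-clonogenic luminal cells, 7.04 to 8.00 in ductal progenitors and 8.87 to 9.44 in alveolar progenitors, so the 3 populations did not overlap. Its differences from alveolar progenitors were -3.63 ± 0.20 and -1.80 ± 0.20. Tgfb3 was lower than in alveolar progenitors by -2.13 ± 0.39 and -1.43 ± 0.39. All 6 differences passed the limma threshold. Of the 19 EMT genes measured, 4 were higher and 5 lower in non-clonogenic luminal cells against alveolar progenitors. In that comparison 28.5% of all genes were called in either direction. The list median was -0.00 against 0.03 for all genes.

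The p63-linked list was likewise divided among luminal cells. In non-clonogenic luminal cells against alveolar progenitors 2 genes were higher, Trim29 (1.64 ± 0.17) and Dst (1.25 ± 0.16), and 5 were lower, led by the desmosomal gene Pkp1 (-3.22 ± 0.14) and the laminin chain Lama3 (-2.22 ± 0.23), with a median of 0.07. Pkp1 read 8.54 and 8.74 in the wild-type and 6.91 and 7.08 in the knockout non-clonogenic luminal cells. It read 10.76 to 11.48 in all alveolar and myoepithelial arrays, with no gap between them. Of the 20 epithelial adhesion genes 1 was higher in the same comparison, Dsp (0.61 ± 0.09). Another 6 were lower, among them the transcription factor Ovol2 (-1.02 ± 0.14), with a list median of -0.26. That count is near the share of all genes called.

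Cdh13 separated the genotypes in both Sca1+ populations. It read 6.05 and 6.42 in the wild-type and 7.60 and 8.45 in the knockout non-clonogenic luminal cells, and 6.25 and 6.37 against 7.82 and 8.42 in ductal progenitors. In alveolar progenitors it read 6.44 and 6.01 against 6.67 and 6.61, and in myoepithelial cells the genotypes overlapped at 8.18 to 8.85.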
